A study of Mus musculus with 20 samples.

Results

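The segment described here is a stretch of mouse chromosome 8 on both sides of Tlr3, the gene deleted in 1 of the mouse lines of the study. Its members were all non-control probes that the array files place on chromosome 8 between 23 and 66.5 Mb of the mm9 build, leaving out the probes for Tlr3 itself and for the alpha-defensins. There were 469 such probes among 41174 on the array, under 306 distinct names. The scanner marked 332 of them as well above background on 4 or more of the 20 arrays; these entered the tests, together with all other such probes, 31541 in total. Of the 137 others, 70 were well above background on 0 arrays and 67 on 1 to 3 arrays.

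Epithelial cells were isolated from the intestine of healthy mice aged 28 days, and RNA of each animal was hybridised to 1 one-colour Agilent array. There were 5 genotypes of 4 animals each: wild type, Tlr3 knockout, Tlr4 knockout, MyD88 knockout and homozygotes for a mutant allele of the adaptor Trif (the LPS allele). The labels give all 20 animals the strain C57BBL6, and each knockout is of the whole animal, with no tissue-specific promoter or Cre named. The labels do not give the origin of an allele, the generations of backcross or the gut region. Here the 4 Tlr3 knockout arrays were set against the 16 arrays of the other 4 genotypes, by position along the chromosome.

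TLR3 is an endosomal receptor for double-stranded RNA that signals through TRIF, while TLR4 detects lipopolysaccharide and signals through both TRIF and MyD88. In a line made by gene targeting, the neighbours of the targeted gene are inherited together with it, so an array comparison of such a line also compares its neighbourhood. The segment holds genes of many unrelated functions, among them subunits of protein complexes (Vps37a, Cnot7, Tusc3), kinases and phosphatases (Nek3, Nek5, Dusp4, Mtmr7), a DNA helicase (Wrn) and an enzyme of tryptophan breakdown (Ido1).

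Several genes of the segment were read by more than 1 probe, and for some of them the probes differed from each other in Tlr3 knockouts, in size or direction. A selection of such probes is shown first, with a pair of Wrn probes that moved the same way. Each line gives the middle 30 bases (bases 16 to 45) of a probe of 60 bases, 5′ to 3′ in the sense of the transcript, with its mm9 position and strand; probes of a gene are numbered by position. Where a position is wider than 60 bases, the probe lies over separate stretches of the genome. Capitals mark the only base at which a pair of overlapping Wrn probes differ.
Golga7 probe 1, chr8:24352085-24352144, minus strand: gtatcggaatttcttatgttcttttaggaa
Golga7 probe 2, chr8:24356505-24356564, minus strand: tgctttacagaaatcaacatgacttgcatt
Wrn probe 2, chr8:34346449-34346508, minus strand: cagatcaAtagttgcatagggacagatatg
Wrn probe 3, chr8:34346458-34346517, minus strand: catatagaacagatcaGtagttgcataggg
Cnot7 probe 1, chr8:41578761-41578820, minus strand: tgttcaacaggaataacagaaaaagacaag
Cnot7 probe 2, chr8:41595494-41595553, minus strand: caatcaagtataacattttgatgctccaca
Vps37a probe 1, chr8:41627019-41627078, plus strand: tgcagtagttttgtaggaagatggaaaata
Vps37a probe 2, chr8:41629288-41630337, plus strand: gaacaatttgccactgtagaagagctaaag
Fgl1 probe 1, chr8:42283445-42283504, minus strand: ttatcctagttttaagaggtgtgtgtgtgt
Fgl1 probe 2, chr8:42285914-42295065, minus strand: attgttcagagatttacaatgacggattta

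Levels are log2 signals minus the 75th percentile of their array, so 0 is the signal that 75% of the probes of an array do not exceed. Differences are the mean of the Tlr3 knockouts minus the mean of the other 4 genotypes, with the SE and the adjusted p of limma over all kept probes, and a probe was called at an adjusted p under 0.05. Levels of different probes are not comparable, and in these bulk samples fewer cells of a type and less RNA per cell cannot be told apart. The 2 Tlr3 probes check the labels. At chr8:46482009-46482068 the knockout arrays lay between -8.79 and -8.26 and the other 16 between -1.83 and -1.08 (median -1.47). It passed the background on 0 of 4 knockout arrays and on 16 of 16 others, a signal at least 50.3-fold lower (difference -6.99 ± 0.11, adjusted p = 2.45e-17). The second Tlr3 probe was at least 47.3-fold lower.

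The share of probes well above background was 64.7% to 73.4% on the 16 arrays of the first scan. It was 70.9% to 85.5% on the 4 MyD88 arrays, which had slides of their own and another scan date or scanner. For MyD88 knockouts, slide, scan and genotype therefore cannot be told apart. Same-numbered wild type, Trif, Tlr4 and Tlr3 arrays shared a slide, with each genotype at 1 fixed position, so position and genotype cannot be told apart. The signal of Y-linked genes was above that of Xist on 1 of 4 Tlr3, 0 of 4 wild type, 3 of 4 Trif, 0 of 4 Tlr4 and 4 of 4 MyD88 arrays. All 7 epithelial markers (Epcam, Vil1, Cdh1, Krt8, Krt18, Krt20 and Cldn7) were well above background on all 20 arrays. In Tlr3 knockouts 4 of these 7 rose. Beside this and the marker counts below, 22.4% of all kept probes rose and 16.8% fell. The log2 of the summed signal of 7 myeloid markers was 3.59 to 4.62 in Tlr3 knockouts against 4.23 to 7.67 over the other groups. In such a sum the brightest probes weigh most, and 1 of the 7 fell, 0 rose and their median difference was 0.135. For 6 stromal markers the sum was 4.57 to 5.07 against 2.97 to 4.56, with 2 of the 6 higher and a median difference of 0.02. Of 7 T and NK cell markers 2 rose, and of 5 B cell and 2 endothelial markers 0 were called. The part of sex and of these cells in the results below was not tested.

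In Tlr3 knockouts the share of segment probes that were called was near that of the whole array, and the share whose groups did not overlap was higher. Of its 332 probes, 150 (45.2%) were called, against 39.2% of all kept probes; 83 were higher (25%, against 22.4%) and 67 lower (20.2%, against 16.8%). All 4 knockout arrays lay above or all lay below the 16 other arrays for 34 segment probes, or 10.2%, against 2.93% of all kept probes. Of these 34, 13 were higher (3.92%, against 2% of all probes) and 21 were lower (6.33%, against 0.935%), and all 34 were also called. With a log2 difference of at least 1 in addition, 23 segment probes remained (6.93%), 8 higher and 15 lower, against 0.926% of all kept probes. The median difference was 0.062 in the segment and 0.078 over all probes, and the median absolute difference was 0.345 and 0.294. Without the MyD88 arrays, 46 segment probes did not overlap, against 3.8% of all.

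**Figure D1:**
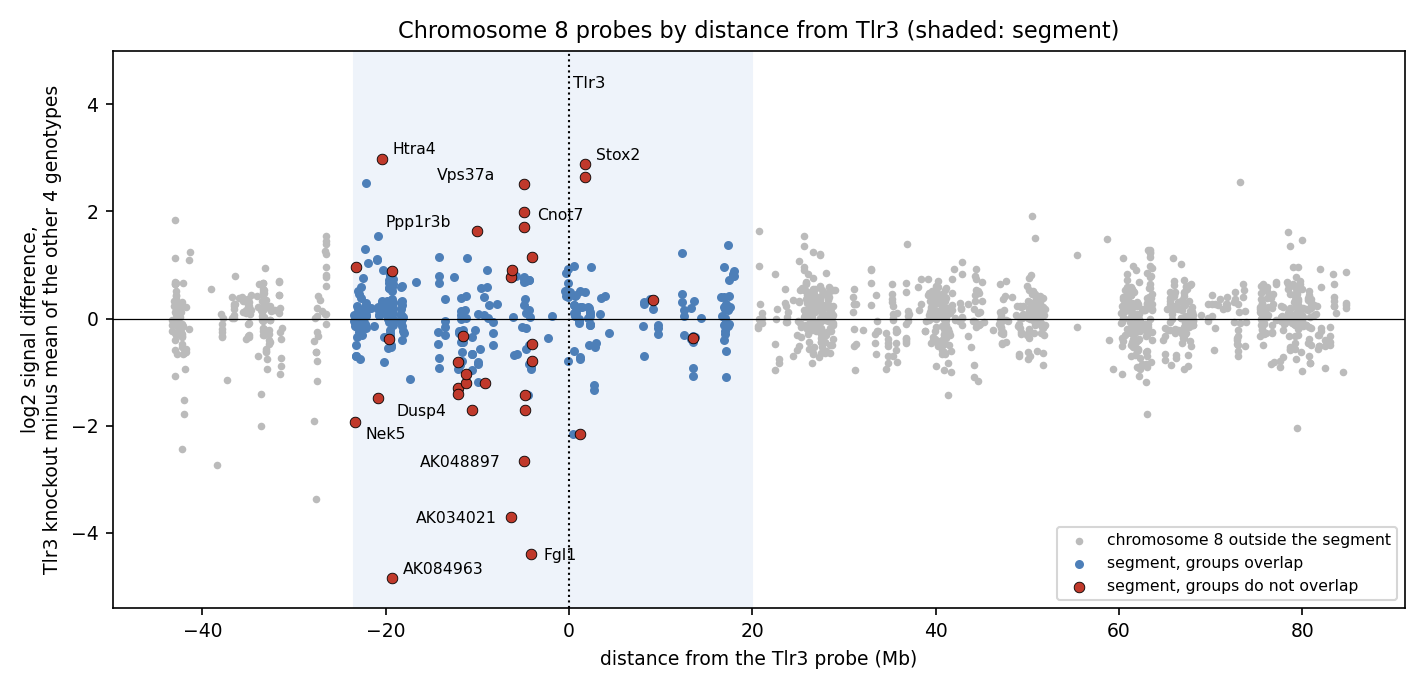
Difference in log2 signal between the Tlr3 knockouts and the mean of the other 4 genotypes (vertical axis) against distance from the Tlr3 probe in Mb (horizontal axis) for kept probes of chromosome 8, without the Tlr3 and alpha-defensin probes; the segment is shaded. The 34 segment probes whose groups did not overlap (red) run from Nek5 at -23.3 Mb to Galnt7 at 13.5 Mb, and above Stox2, at 1.8 Mb, none of them differed by 1 or more.

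The same count was made in each other genotype. At any size of difference, the segment share was above the array share for Tlr4 knockouts and Trif mutants too. In wild type against the rest, 9 segment probes did not overlap (2.71%, against 3.17% of all kept probes). In Tlr4 knockouts there were 8 (2.41%, against 0.996%), in Trif mutants 38 (11.4%, against 7.67%) and in MyD88 knockouts 44 (13.3%, against 16.4%). With a difference of at least 1, the segment held 8 for wild type (2.41%, against 1.58%), 2 for Tlr4 (0.602%, against 0.46%), 10 for Trif (3.01%, against 3.12%) and 24 for MyD88 (7.23%, against 8.05%). The 33 higher segment probes of the Trif mutants (9.94%) stood against 5% of all probes, and 9 of them differed by 1 or more (2.71%, against 1.66%). No test of the difference between genotypes was made.

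**Figure D2:**
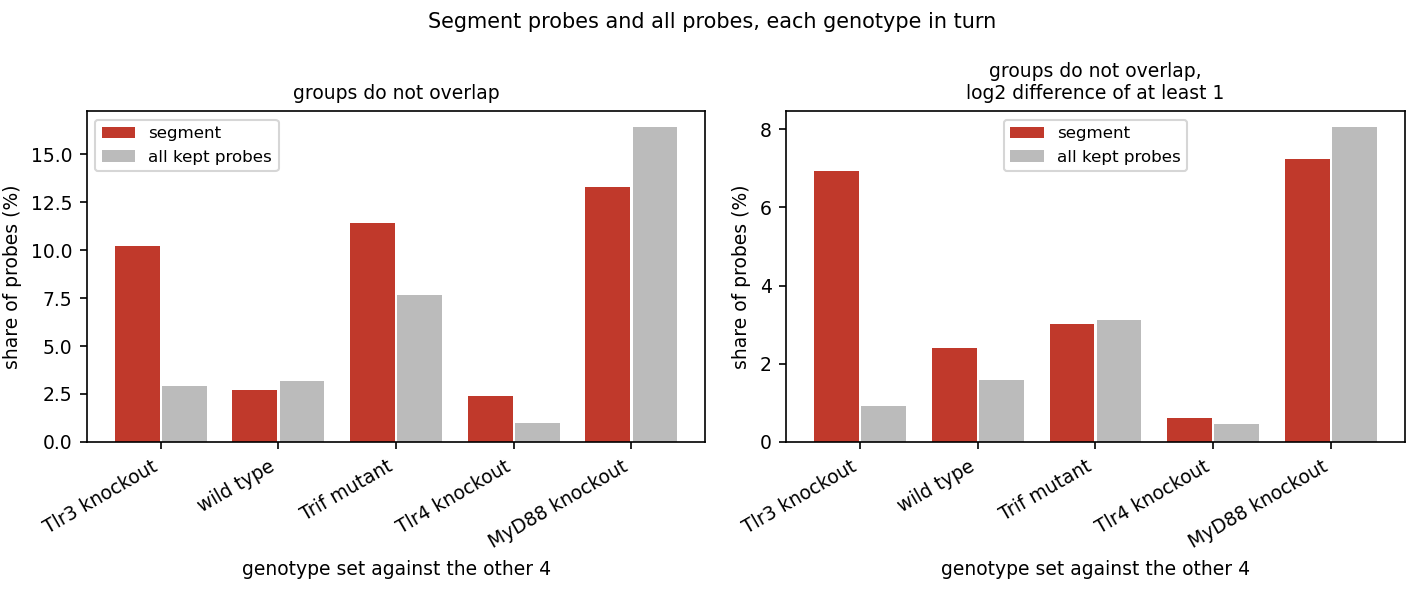
Share of probes in percent (vertical axes) whose 4 arrays of a genotype all lie above or all lie below the other 16, for the segment (red) and for all kept probes (grey), with each genotype in turn on the horizontal axis. Left, any size; right, with a log2 difference of at least 1, where the Tlr3 knockouts have 6.93% in the segment against 0.926% over all probes.

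Against single genotypes, which share the Tlr3 knockout arrays, the shares of called probes were as follows. Tlr3 knockouts differed from wild type at 151 segment probes (45.5%, against 39.4% of all kept probes) and from Tlr4 knockouts at 125 (37.7%, against 29.9%). They differed from Trif mutants at 118 (35.5%, against 21.6%), and 72 of these were lower in Tlr3 knockouts (21.7%, against 10.6%). They differed from MyD88 knockouts at 202 (60.8%, against 59.4%). The reverse contrasts of each other genotype with the remaining 4 called 119 segment probes for wild type (35.8%, against 30.8%), 187 for Trif mutants (56.3%, against 47.4%), 92 for Tlr4 knockouts (27.7%, against 19.7%) and 216 for MyD88 knockouts (65.1%, against 65.8%). The count for Tlr4 knockouts was 40 without replicate 1 of that genotype (12.05%, against 8.78% of all kept probes). It was 37 without replicate 2 (11.14%, against 7.89%) and 53 without replicate 3 (15.96%, against 10.48%).

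By position, the probes that did not overlap were denser below Tlr3 than above it. Below Tlr3 they numbered 29 of 232 (12.5%), 20 of them with a difference of at least 1, and above it 5 of 100 (5%), 3 of them of that size. The 5 Mb just below Tlr3 held 10 of 39 probes (25.6%), the stretch from 15 to 10 Mb below 8 of 44 (18.2%), and the 5 Mb just above 3 of 44 (6.82%). Between 15 and 20 Mb above Tlr3 there were 0 of 29. The 20 probes within 1 Mb of Tlr3 also held 0, and 11 of them were called (55%, against 39.2% of all kept probes). A run from 40 to 43 Mb, singled out after its values were seen, held 13 of 37 probes (35.1%), 6 higher and 7 lower. Of the 37, 28 were called (75.7%, against 39.2% of all kept probes). Without that run the segment still had 21 of 295 (7.12%).

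Counted by probe, the edges of the segment were not the edges of the pattern on the lower side. The last 5 Mb below the segment held 4 of 27 such probes (14.8%), all 4 with a difference of at least 1. Of these 4, 3 were higher and lay close together, at 6820431F20Rik, 2610005L07Rik and an unnamed probe, and 1 was lower, at Agpat5. This share therefore counts probes of few loci, and no count by locus was made. The first 5 Mb inside held 7 of 106 (6.6%). Over all of chromosome 8 below the segment, without alpha-defensins, there were 22 of 194 (11.3%), and the bin nearest the start of the chromosome had 13 of 65 (20%). On the upper side, the last 5 Mb inside held 0 of 29 and the first 5 Mb outside 1 of 29 (3.45%), and the rest of chromosome 8 above the segment held 30 of 1018 (2.95%). The other 19 chromosomes ranged from 2.07% to 3.82% (chromosome 9), and with a difference of at least 1 from 0.401% to 1.64% (chromosome 16).

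**Figure D3:**
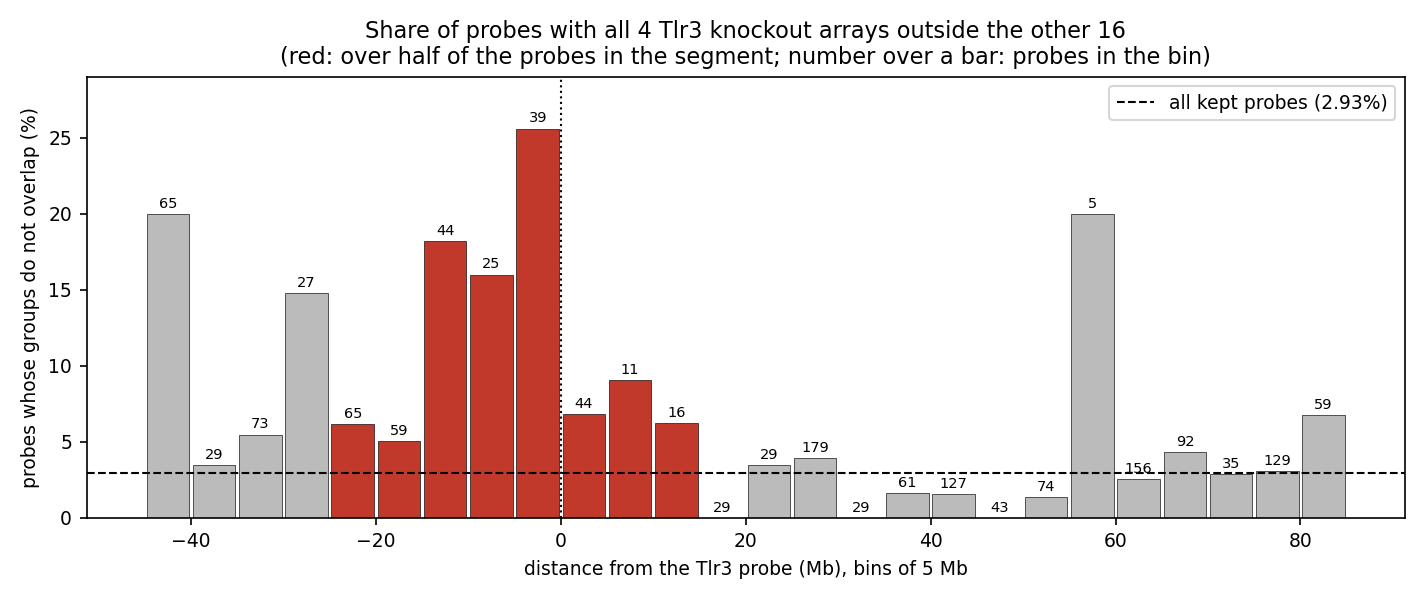
Share of kept probes in percent whose Tlr3 knockout arrays all lie outside the range of the other 16 (vertical axis) in bins of 5 Mb by distance from the Tlr3 probe along chromosome 8 (horizontal axis); the dashed line is the 2.93% of all kept probes and the number over each bar is the number of probes. The bin just below Tlr3 reaches 25.6%, bins further below reach 20%, and above 15 Mb the bins lie between 0% and 6.78%, except 1 bin of 5 probes at 20%.

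Among named genes, 1 probe per gene, 9 rose and 10 fell with groups that did not overlap, out of 158 genes with a standard symbol; with 1 probe per gene, 2.74% of all features on the array did not overlap. The largest rise was that of Htra4, a serine protease of the HtrA family, at chr8:26136015-26136074. Its levels in Tlr3 knockouts were -3.15, -2.78, -2.38 and -2.96, and the others lay between -7.10 and -4.67 (median -5.74; difference 2.99 ± 0.28, adjusted p = 3.59e-06). All 4 knockout arrays and 10 of the 16 others were well above background. With normexp background correction, an alternative that adds an offset of 50 and so shrinks differences between dim signals, the difference was 0.96 and not called (adjusted p = 0.0724).

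Cnot7, a deadenylase subunit of the CCR4-NOT complex that shortens mRNA tails, rose 4.89 Mb below Tlr3. Probe 2 read 0.47, 0.77, 0.72 and 0.41 in the knockouts and -1.77 to -1.10 (median -1.36) in the others (difference 1.99 ± 0.08, adjusted p = 2.64e-11). Probe 1 of the same gene rose by only 0.25 ± 0.09 (adjusted p = 0.0357), with overlapping groups. Its neighbour Vps37a, a subunit of the ESCRT-I complex that sorts membrane proteins, rose at the probes described; a further probe is not reported here. Probe 2 read 1.94, 1.96, 2.20 and 1.70 against -0.71 to 0.84 (median 0.27; difference 1.72 ± 0.14, adjusted p = 5.15e-07). Probe 1 differed by 2.51 ± 0.24 (adjusted p = 3.91e-06) but fell to 0.47 under normexp correction (adjusted p = 0.517); it was well above background on 4 of 4 knockout arrays, 2 of 4 Trif and 2 of 4 Tlr4 arrays and 0 of the wild type and MyD88 arrays.

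Frg1, which takes part in RNA processing, read 1.32, 1.47, 1.38 and 1.36 in the knockouts and -0.34 to 0.89 (median 0.11) elsewhere (difference 1.15 ± 0.09, adjusted p = 2.27e-07). The 4 knockout arrays agreed within 0.15, while the other genotypes differed among themselves, with Trif mutants highest at a mean of 0.78. Tusc3, a subunit of the oligosaccharyltransferase that attaches N-glycans, rose at both of its probes, by 0.77 ± 0.09 (adjusted p = 2.7e-05) and 0.90 ± 0.09 (adjusted p = 5.14e-06). Ppp1r3b, a subunit that brings protein phosphatase 1 to glycogen, read -3.69, -3.56, -3.46 and -4.10 against -5.95 to -4.77 (median -5.29; difference 1.64 ± 0.13, adjusted p = 4.44e-07). Under normexp correction its difference was 0.45 (adjusted p = 0.514).

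The kinase Nek3 and the dynein adaptor Hook3 also rose, at the far end of the segment. Nek3 read 1.22, 1.72, 1.33 and 1.65 against -0.09 to 1.06 (median 0.46; difference 0.96 ± 0.11, adjusted p = 1.89e-05). For Hook3 the brightest probe rose by 0.89 ± 0.13 (adjusted p = 0.000141), and the other probes by 0.33 and 0.52 with overlapping groups. Spcs3, a subunit of signal peptidase, was the only riser that did not overlap above Stox2. It read 3.47, 3.37, 3.50 and 3.51 against 2.78 to 3.33 (median 3.12), a difference of 0.34 ± 0.07 (adjusted p = 0.00159), which against MyD88 knockouts alone was not called (adjusted p = 0.0886).

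The largest fall among the named genes whose groups did not overlap was that of Nek5, a kinase of the same family as Nek3 whose probe lies next to it. It read -4.64, -4.30, -4.57 and -4.39 in the knockouts and -3.76 to -1.50 (median -2.66) in the others (difference -1.93 ± 0.16, adjusted p = 5.61e-07; -1.05 under normexp correction). The neighbouring Nek genes thus moved in opposite directions. Mtmr7, a phosphatase of the myotubularin family, fell at both probes. The first read -2.07, -1.75, -2.23 and -1.91 against -0.66 to 0.51 (median -0.45; difference -1.70 ± 0.12, adjusted p = 5.94e-08), and the other differed by -1.43 ± 0.16 (adjusted p = 1.2e-05).

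Dusp4, a phosphatase that switches off MAP kinases, read -1.96, -1.50, -1.28 and -2.20 against -0.37 to 1.08 (median -0.14; difference -1.70 ± 0.20, adjusted p = 2.47e-05). Its second probe fell by 0.96 with groups that overlapped. Wrn, the RecQ helicase lost in Werner syndrome, fell at all 4 of its probes. Probe 3 read -2.42, -2.88, -2.72 and -2.96 against -1.68 to -1.10 (median -1.45; difference -1.30 ± 0.10, adjusted p = 4.44e-07), and probe 2 differed by -0.81 ± 0.09 (adjusted p = 2.06e-05). These probes share 51 positions and differ there at 1 base, A23G, counted from the 5′ end of probe 2 and with the base of probe 2 first, and the signal was lower in the knockouts for both. Probe 4 differed by -1.42 and passed the background on 0 of 4 knockout arrays (at least 2.07-fold lower), but by -0.32 under normexp correction (adjusted p = 0.771); probe 1 differed by -0.94, with groups that overlapped.

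Saraf, a membrane protein that limits store-operated calcium entry, was lower in the knockout on all 4 shared slides. It read 3.57, 3.74, 3.69 and 3.44 against 4.20 to 5.03 (median 4.61; difference -1.03 ± 0.09, adjusted p = 2.19e-06), and within the 4 shared slides the difference ranged from -1.31 to -0.96. Lonrf1, a RING finger protein, read -4.34, -3.93, -4.01 and -4.03 against -3.43 to -1.88 (median -3.06; difference -1.20 ± 0.15, adjusted p = 3.37e-05; -0.77 under normexp correction). The other falls were under 0.5 in size. They were those of Asah1, the acid ceramidase (-0.47 ± 0.09, adjusted p = 0.00102), Plpp5, a lipid phosphatase (-0.38 ± 0.08, adjusted p = 0.00112), Galnt7, which adds sugars to O-glycans (-0.36 ± 0.10, adjusted p = 0.00639), and Gtf2e2, a subunit of the transcription factor TFIIE (-0.33 ± 0.07, adjusted p = 0.00119). Under normexp correction Plpp5 (adjusted p = 0.0711), Galnt7 (adjusted p = 0.0891) and Gtf2e2 (adjusted p = 0.167) were not called. Against Trif mutants alone Asah1 was not called (adjusted p = 0.127).

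The deepest falls came from probes outside the rule for named genes, and they and the probes below were chosen after their values were seen. A probe for the cDNA clone AK084963, on the same strand as Hook3 and 37.5 kb from it, read -8.78, -7.17, -8.37 and -8.43 against -4.42 to -2.39 (median -3.26). It was well above background on none of the 4 knockout arrays and on all 16 others, at least 13.9-fold lower (adjusted p = 2.64e-11). The clone AK034021, between the Tusc3 probes on the same strand, was at least 5.88-fold lower (-8.46 to -8.14 against -6.20 to -3.62; adjusted p = 5.26e-10). Tusc3 itself rose. A probe for the clone AK048897 lies 2.95 kb from Mtmr7 on the same strand, and nearer to Vps37a on the opposite strand. It fell by 2.66 ± 0.14 (adjusted p = 1.18e-09), as Mtmr7 fell, while Vps37a rose. A probe for 9130214F15Rik fell by 1.49 ± 0.14 (adjusted p = 3.47e-06). Under normexp correction the differences were -1.14 for AK084963, -0.68 for AK034021 (adjusted p = 0.19), -1.51 for AK048897 and -0.70 for 9130214F15Rik (adjusted p = 0.0529).

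**Figure D4:**
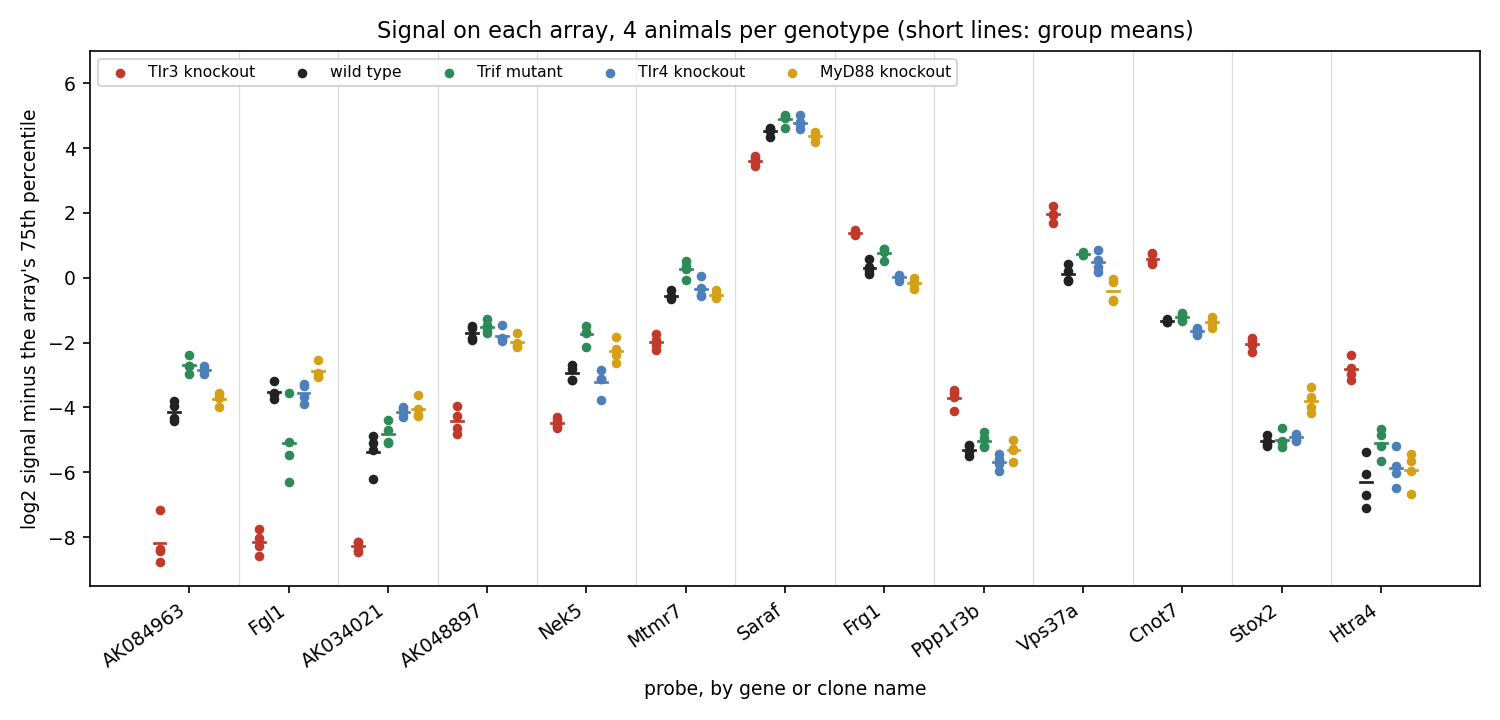
Log2 signal minus the 75th percentile of the array (vertical axis) on each of the 20 arrays for 13 of the probes whose groups did not overlap (horizontal axis, the brightest such probe of each name), by genotype, with short lines for group means of 4 animals. For the first 3 names the Tlr3 knockout arrays lie below -7; for the last 6 they lie above every other array.

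For some genes, probes of the same gene name gave different answers. Of 75 segment genes with more than 1 kept probe, 11 (14.7%) had probes whose differences lay 1 or more apart, against 4.82% of 6520 such genes on the array. In 3 (4%, against 1.6%) probes were called in opposite directions, namely Golga7, Leprotl1 and Mtus1. The log2 differences of the probes of a gene spanned a median range of 0.265 in the segment and 0.221 over the array. Of the 75 genes, 50 (66.7%, against 72.4%) had all probes on 1 side of 0.

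Fgl1, a secreted fibrinogen-like protein, had the widest gap. Probe 2, whose position spans more than its 60 bases, read -8.04, -8.28, -7.74 and -8.58 in the knockouts and -6.30 to -2.54 (median -3.55) elsewhere. It was well above background on none of the 4 knockout arrays and on 15 of the 16 others, at least 10.4-fold lower (difference -4.40 ± 0.30, adjusted p = 6.93e-08; -1.09 under normexp correction). Probe 1 of the same gene read 0.43, 1.08, 0.69 and 0.85 against 0.10 to 1.83 (median 0.71), a difference of 0.03 ± 0.20 (adjusted p = 0.929).

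Stox2, a storkhead box protein, had probes that rose by 2.65 ± 0.13 (adjusted p = 3.39e-10) and 2.88 ± 0.29 (adjusted p = 6.04e-06), and between them a probe that differed by 0.49 ± 0.21 (adjusted p = 0.0759). Under normexp correction the Stox2 rises were 1.22 and 0.85, the latter not called (adjusted p = 0.147). For Leprotl1 the probe in the middle fell by 1.20 ± 0.08 (adjusted p = 5.94e-08), while its neighbours differed by 0.01 (adjusted p = 0.923) and rose by 0.42 (adjusted p = 0.00329).

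Golga7, a partner protein of a palmitoyltransferase, did not separate the Tlr3 knockouts from all other arrays because a second genotype shared its level. At probe 2 the Tlr3 knockouts read -0.31, -0.42, -0.07 and -0.13 and the Tlr4 knockouts -0.07, -0.11, -0.11 and 0.23, while the means of wild type, Trif mutants and MyD88 knockouts were -4.05, -3.01 and -3.95. At probe 1 all 5 genotypes had means between 1.31 and 1.56. The difference of the Tlr3 knockouts from the other 4 genotypes was 2.53 ± 0.10 at probe 2 (adjusted p = 2.64e-11) and -0.17 ± 0.06 at probe 1 (adjusted p = 0.0478).

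**Figure D5:**
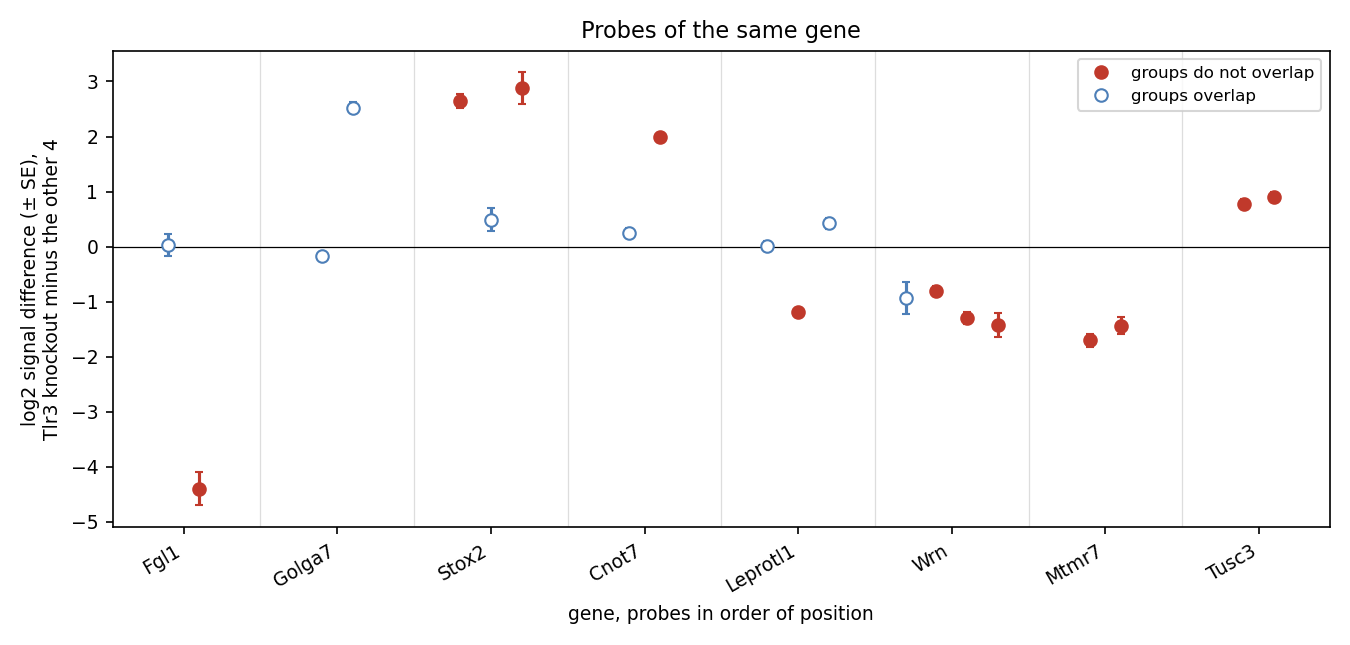
Difference in log2 signal (± SE) between the Tlr3 knockouts and the other 4 genotypes (vertical axis) for each kept probe of 8 genes (horizontal axis, probes in order of position); filled red points are probes whose groups did not overlap. Fgl1, Golga7, Stox2, Cnot7 and Leprotl1 have probes more than 1.5 apart, while those of Wrn, Mtmr7 and Tusc3 lie within 0.607 of each other. The probes of Stox2, Cnot7, Wrn, Mtmr7 and Tusc3 lie on 1 side of 0.

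For each of the 8 named genes nearest to Tlr3 the knockout arrays overlapped the others. Below Tlr3, Fam149a fell by 0.79 ± 0.21 (adjusted p = 0.00758) and Klkb1, plasma prekallikrein, rose by 0.93 ± 0.22 (adjusted p = 0.0032; 0.16 under normexp correction, adjusted p = 0.923). Cyp4v3, a cytochrome P450 of fatty acid oxidation, differed by 0.40 ± 0.19 (adjusted p = 0.116) and F11, coagulation factor XI, by 0.66 ± 0.26 (adjusted p = 0.0501). Klkb1 read -3.83, -3.84, -3.84 and -3.12 in Tlr3 knockouts, while wild type had a mean of -5.85 and Trif mutants one of -3.23, above the knockouts. Without Tlr4 replicate 4, Cyp4v3 was called (0.47, adjusted p = 0.0181), and F11 was called in 5 of 20 runs with 1 array left out.

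Above Tlr3, Sorbs2, an adaptor of the actin cytoskeleton, fell by 2.15 ± 0.45 (adjusted p = 0.00151). It read -5.64, -5.80, -6.71 and -5.55 in the knockouts, and Trif mutants, with a mean of -5.17, overlapped them; under normexp correction the difference was -0.92 (adjusted p = 0.0861). Ankrd37, an ankyrin repeat protein, rose by 0.98 ± 0.26 (adjusted p = 0.00728), but without the MyD88 arrays by 0.75 and was then not called (adjusted p = 0.0659). Pdlim3, a LIM protein of muscle, differed by 0.26 ± 0.33 (adjusted p = 0.577), and Ufsp2, the protease of the UFM1 system, by 0.10 ± 0.06 (adjusted p = 0.231).

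The segment genes were also read by role, from lists chosen with earlier results of these data known, and 1 probe stood for each gene. No test of a list was made. Of 9 genes of innate immunity and cell death, 3 rose and 0 fell, against 22.4% and 16.8% of all kept probes (median difference 0.518, against 0.078). Ido1, the interferon-inducible enzyme that breaks down tryptophan, rose by 1.55 ± 0.41 (adjusted p = 0.00688). It read 4.03, 4.13, 3.90 and 1.59 in the knockouts against 0.05 to 2.98 (median 1.86), so 3 knockout arrays lay above every other array and replicate 4 lay among them. Of 12 genes of the interferon gamma response elsewhere in the genome, 6 rose and 0 fell, against 22.4% and 16.8% of all kept probes. The log2 of their summed signal was 7.15 to 7.78 in Tlr3 knockouts, 6.92 to 7.36 in wild type and 6.75 to 6.95 in Trif mutants. It was 7.34 to 7.69 in Tlr4 knockouts and 6.76 to 7.03 in MyD88 knockouts. The part of these 12 genes in the Ido1 result was not tested. Klkb1 rose as above, and Msr1, the macrophage scavenger receptor, rose by 0.79 ± 0.26 (adjusted p = 0.0223) but was well above background on 1 of 4 knockout arrays and turned to -0.06 under normexp correction. Msr1 was not called without Tlr3 replicate 3 (adjusted p = 0.0618) or 4 (adjusted p = 0.0977). Those not called included Bag4, F11, Ido2, Ikbkb and Irf2.

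Of 18 genes of metabolism and transport, 4 rose (Ddhd2, Slc25a15, Slc25a4 and Star) and 5 fell (Asah1, Dctd, Gsr, Hgsnat and Slc7a2), near the 22.4% and 16.8% of all kept probes, with a median of -0.008. Slc7a2, a carrier of cationic amino acids, fell by 1.42 ± 0.25 (adjusted p = 0.000478), but it was well above background on 0 of 4 knockout arrays (at least 1.45-fold lower) and 0 of 4 wild type arrays, and it differed by -0.29 under normexp correction (adjusted p = 0.847). Dctd, the deaminase that supplies dUMP, fell by 1.33 ± 0.49 (adjusted p = 0.039). Its knockout arrays, at -3.70, -4.86, -4.45 and -3.40, lay between Trif mutants with a mean of -5.60 and the other 3 genotypes. The Dctd call was lost under normexp correction (adjusted p = 0.0532), without the MyD88 arrays (-0.89, adjusted p = 0.229) and in 8 runs with 1 array left out, with adjusted p from 0.0513 to 0.155: without Tlr3 replicate 1, 2 or 3, wild type replicate 1, Tlr4 replicate 1 or 2, or MyD88 replicate 2 or 4. Star, which carries cholesterol into mitochondria, rose by 0.79 ± 0.17 (adjusted p = 0.00206; 0.24 under normexp correction, adjusted p = 0.747).

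Of 5 genes of glycosylation, Tusc3 and Fut10 rose, Galnt7 fell, and Alg11 and Galntl6 were not called, beside 22.4% and 16.8% of all kept probes. Fut10, of the fucosyltransferase family, rose by 0.66 ± 0.20 (adjusted p = 0.0167); the call was lost under normexp correction (0.20, adjusted p = 0.904) and without Tlr3 replicate 3 (adjusted p = 0.0709) or 4 (adjusted p = 0.106). Of 14 genes of DNA repair, replication and chromatin, 6 fell (Ash2l, Gtf2e2, Hmgb2, Mak16, Sap30 and Wrn) and Nek3 rose, against 16.8% of all kept probes that fell and 22.4% that rose, with a median of -0.053. Hmgb2, a chromatin protein abundant in dividing cells, fell by 0.92 ± 0.24 (adjusted p = 0.00692). It read 4.12, 3.48, 3.22 and 4.25 against 2.85 to 5.77 (median 4.97), with Trif mutants still lower on average at 3.58, and the call was lost without the MyD88 arrays (-0.68, adjusted p = 0.0647).

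Of 13 genes of growth factor and Wnt signalling, 4 rose (Fat1, Fgfr1, Sfrp1 and Vegfc) and 3 fell (Dusp4, Pdgfrl and Ppp2cb), against 22.4% and 16.8% of all kept probes, with a median of 0.008. Sfrp1, a secreted Wnt antagonist, rose by 1.03 ± 0.32 (adjusted p = 0.0176), but Tlr4 knockouts, with a mean of -3.52, lay above the Tlr3 knockouts at -4.95, and under normexp correction the difference was -0.02. Without Tlr3 replicate 1 (adjusted p = 0.0506) or 2 (adjusted p = 0.0581) it was not called. Pdgfrl, a protein similar to a PDGF receptor, fell by 0.84 ± 0.21 (adjusted p = 0.0041), and under normexp correction the difference was -0.49 (adjusted p = 0.312).

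Of 6 proteases and their relatives, Htra4 and Adam9 rose and 0 fell, beside 22.4% and 16.8% of all kept probes (median 0.098). Adam9, a membrane metalloprotease, rose by 0.32 ± 0.09 (adjusted p = 0.00862), with the call lost without Tlr3 replicate 3 (adjusted p = 0.0531), by median scaling (adjusted p = 0.0859) and under normexp correction (adjusted p = 0.0502), and Adam5 differed by 0.13 ± 0.28 (adjusted p = 0.748). Of 17 genes of membrane traffic and the cytoskeleton, 9 rose (Clcn3, Hook3, Leprotl1, Mtus1, Palld, Rab11fip1, Snx25, Trappc11 and Vps37a) and 3 fell (Golga7, Pcm1 and Sorbs2), against 22.4% and 16.8% of all kept probes, with a median of 0.225. Golga7, Leprotl1 and Mtus1 each also had a probe called the other way, at 2.53, -1.20 and -0.50. The brightest probe of Pcm1, the scaffold of centriolar satellites, fell by 0.91 ± 0.19 (adjusted p = 0.00151), although MyD88 knockouts, with a mean of -1.85, lay lower still. A dimmer Pcm1 probe read -1.67, -1.65, -1.65 and -1.74 against -1.20 to -0.65 (difference -0.80 ± 0.07, adjusted p = 1.57e-06) and did not overlap.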

How the data were processed

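Total RNA of epithelial cells detached with EDTA was labelled with Cy3, per the labels' protocols. The spot intensity deposited for each array, the processed signal, is linear and background-subtracted, per the file headers, and was read with Agilent Feature Extraction 10.7.3.1, per the submitters' processing notes. The authors' deposited value table holds the same intensity times 1 factor per array (1.58 to 2.27). The well-above-background and outlier columns (other) are those of the file headers; 1639 control spots and 67 to 210 outlier spots per array were left out, and 0 were saturated.

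Spots of a probe were averaged on the log2 scale. The 75th percentile over the probes of each array was then subtracted, so the deposited intensity became a relative log2 level. A probe was kept where it was well above background on at least 4 arrays; 4 missing values among segment probes were not imputed. Group means over 20 arrays, each 1 animal per the series' design, entered a linear model (limma 3.58.1 under R 4.3.3; Benjamini-Hochberg over 31541 probes), with the number of arrays limiting the precision. Probe names, positions and strands are those of the files (mm9), and 284 segment probes were named through RefSeq (assembly GRCm38.p6, names only), 32 of them changing name; no gene model of the files' build was used here. A fold written "at least" sets the mean of the bright groups against the dim group at the lowest level that passed the background on each array, or at its own level where that was higher.

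Genes were named by rule from 1 probe per gene (the brightest): Tlr3, the 14 largest rises and falls among called genes whose groups did not overlap (9 and 10 existed), the 4 nearest genes on each side, and 3 per role list. The members, lists and rules were chosen with earlier results of these data known. Alternatives were normexp correction (offset 50), quantile and median scaling, the value table, other filters on dim probes, 1 probe per gene, another moderation, slide and replicate blocks, and leaving arrays out. The scripts were tested on simulated data. Some genes and probes of the segment are counted but not reported by name here.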

Additional observations from a re-analysis of the deposited data

Results flagged for a closer look

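For the 54 probes described, 270 groups of 4 arrays were examined for 1 array that stood apart from the other 3, and 13 were found; chance gives about 1 in 20 groups. In Tlr3 knockouts, Ido1 read 1.59 in replicate 4 against 3.90 to 4.13 in the others, Klkb1 read -3.12 in replicate 4 against -3.84 to -3.83, and Adam9 read 2.89 in replicate 3 against 2.65 to 2.69. In wild type, Dusp4 read 0.12 in replicate 2 against -0.22 to -0.17, Cyp4v3 read 4.66 in replicate 1 against 5.39 to 5.46, and Pdgfrl read -4.44 in replicate 1 against -3.89 to -3.83. In Trif mutants, Tusc3 read 0.28 in replicate 1 against 0.59 to 0.62, Ido1 read 1.66 in replicate 4 against 2.77 to 2.85, and the Wrn probe at 34395672 read -5.22 in replicate 2 against -6.29 to -6.18. In Tlr4 knockouts, Cyp4v3 read 6.07 in replicate 4 against 4.87 to 4.99, the Tusc3 probe at 40250382 read 0.25 in replicate 3 against 0.07 to 0.10, and the AK048897 probe read -1.47 in replicate 4 against -1.95 to -1.87. In MyD88 knockouts, F11 read -4.64 in replicate 2 against -4.16 to -4.12.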

How the results depend on the processing

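Counts of called segment probes depended most on the background correction. With normexp, Tlr3 knockouts differed from the other 4 genotypes at 70 probes (21.08%, against 14.96% of all kept probes). They differed from wild type at 66 (19.88%, against 12.72%) and Trif at 52 (15.66%, against 5.48%). From Tlr4 they differed at 37 (11.14%, against 5.02%) and from MyD88 at 98 (29.52%, against 29.67%). The contrasts with the rest called 33 for wild type (9.94%, against 8.73%) and 115 for Trif (34.64%, against 24.95%). Those for Tlr4 and MyD88 called 10 (3.01%, against 1.14%) and 85 (25.6%, against 28.79%). Under normexp the share of all probes called against the other 4 genotypes thus fell too. That setting moved the median of all probes from 0.078 to -0.081 and turned Msr1 to -0.061 and Sfrp1 to -0.021. With 1 probe per gene, 219 segment features were left. Tlr3 knockouts then differed from the other 4 genotypes at 92 (42.01%, against 37.77% of all features). They differed from wild type at 97 (44.29%, against 38.61%), Trif at 76 (34.7%, against 20.25%) and Tlr4 at 83 (37.9%, against 30.72%). The contrasts with the rest called 78 for wild type (35.62%, against 30.2%) and 117 for Trif (53.42%, against 46.4%). That for Tlr4 called 55 (25.11%, against 19.63%).

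Probes whose groups did not overlap numbered 25 with normexp (22 of them among the 34; 1.67% of all probes), 34 with quantile normalization (30 shared; 2.87%), 31 with median scaling (29 shared; 2.13%), 33 with the value table (33 shared; 2.93%) and 46 without the MyD88 arrays (34 shared; 3.8%). With 1 array left out, these probes ranged from 34 to 39 (2.94% to 5.29% of all kept probes). Probes called against the other 4 genotypes ranged from 125 to 157 (27.67% to 41.46% of all). The ranges were 134 to 165 against wild type (30.75% to 42.23% of all) and 102 to 124 against Trif (16.36% to 22.76%). They were 90 to 138 against Tlr4 (15.11% to 34.44%) and 186 to 207 against MyD88 (54.49% to 61.27%). Against the rest they were 85 to 138 for wild type (19.77% to 35.35%) and 163 to 193 for Trif (40.08% to 48.38%). For Tlr4 and MyD88 against the rest they were 37 to 102 (7.89% to 23.48%) and 192 to 232 (57.98% to 67.95%). The replicate block left 148 probes called against the other 4 genotypes (44.58%, against 39.13% of all kept probes). It moved no count by over 1.5 times or any named call. Same-numbered Tlr3 and other arrays did not all deviate together (r from -0.161 to 0.3). At most 3 of 4 Tlr3 arrays correlated best with their own number, so the numbers were not taken to pair animals. Over single probes and all alternatives, 1608 values kept their side of the threshold and, where called, their direction, 40 lost the call, 10 gained it and 2 reversed. F11 was called with the value table, the stricter filter, the other moderation and the slide block (correlation 0.107), and Msr1 was not called with quantile normalization (adjusted p = 0.0761) or the value table (adjusted p = 0.227), nor Dctd with no filter on dim probes (adjusted p = 0.0524). Values below background are bounds.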
